A study of Drosophila melanogaster with 41 samples.

Results

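The comparison described here set embryos carrying elavmin, a mutant allele of the neuronal RNA-binding protein gene elav, against wild-type embryos of the same age, at the level of whole genes and then of exon bins. Its members were 8 of the 41 libraries of the series, taken by their labels, and the expression of a gene was the sum of the deposited counts over all of its bins. Of 17027 genes or merged genes, 11506 had enough counts to be tested. Bins were examined only in genes outside the study's list of ELAV-dependent 3′ UTRs and exons, which left 52784 tested bins of the 84619 in the table.

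The series consists of mRNA-seq libraries of Drosophila melanogaster embryos and adult heads in which elav, its paralog fne, or both were altered. The study asked how far nuclear FNE can stand in for ELAV when ELAV is scarce or missing. The 4 elavmin libraries and the 4 wild-type libraries came from male embryos 14 to 16 h after egg laying. Each library held the RNA of 12 to 15 individuals raised at 25°C without treatment.

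The elavmin allele is a frame shift made by CRISPR-Cas9 editing within the third RNA-recognition motif, and the truncated protein is present at a very low level. The wild-type flies were w1118, a stock named for its mutant allele of the eye colour gene white (w). Male mutant embryos were picked by the absence of a GFP-marked balancer chromosome, so elavmin is represented by a single allele in pooled embryos. The study's methods mention that its fly strains varied in genetic background, without saying where elavmin and w1118 differ, and an effect of the allele and an effect of the stock cannot be told apart in this design. Other libraries served as further comparisons: elavmin and wild-type male adult heads at 72 h (3 each), elavmin,fnenFNE and fnenFNE control male embryos at 7 to 8 h (4 each), and male embryos at 14 to 16 h with a protein-null allele of elav (Δelav, 4). Male embryos at 14 to 16 h with both Δelav and fnenFNE (4) entered only an alternative fit and the scaling of Δelav and cell type marker levels. The fnenFNE allele, carried by these embryos and by both 7 to 8 h groups, is a version of fne. It always includes a mini-exon directing FNE to the nucleus. The head and 7 to 8 h libraries share no sample with the embryo comparison.

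ELAV belongs to the ELAV/Hu family of RNA-binding proteins, which bind U-rich stretches in nascent transcripts. In fly neurons it promotes the use of distal polyadenylation sites, giving long neuronal 3′ UTRs, and the inclusion of neuronal exons. Proteins of the family are also known to act on mRNA stability and translation. The level of a gene summed over bins is a separate readout from transcript form, although a shortened 3′ UTR lowers the number of reads a gene can collect.

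Counts on bins summed to between 28865495 and 36497233 in the elavmin libraries and between 33721258 and 38360565 in the wild-type libraries. TMM factors lay between 0.994 and 1.009 over both groups. The 10 most abundant genes took 7.76% to 7.96% of the counts in elavmin and 7.24% to 7.36% in wild type, and the shift of counts toward the 3′ end overlapped between the groups. Markers of neurons, glia, muscle, hemocytes, fat body, tracheae and gut were all detected, and none was at 0 in either group. Summed over the markers, neuronal genes stood at 1460 to 1620 CPM (counts scaled to a common library size) in elavmin and 1440 to 1580 CPM in wild type, which overlapped. This sum includes elav, the altered gene, which averaged 347 CPM in elavmin and 175 CPM in wild type. The overlap therefore does not show that the other neuronal markers were level. The sum averaged 1550 CPM in elavmin and 1500 CPM in wild type, a smaller gap than that of elav alone. Without elav, the neuronal markers together thus averaged lower in elavmin, and whether their libraries overlapped was not tested. Muscle markers were at 31800 to 32700 CPM in elavmin and 30000 to 31400 CPM in wild type. Glial markers, at 542 to 547 CPM in elavmin and 572 to 591 CPM in wild type, and hemocyte markers, at 295 to 310 CPM in elavmin and 360 to 385 CPM in wild type, were lower in every elavmin library. In bulk samples, fewer cells of a type and less RNA per cell cannot be told apart.

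Small changes in many genes made up most of the response. With edgeR's quasi-likelihood test at an adjusted p-value of 0.05, 1754 genes were higher in elavmin (15.2% of those tested) and 1660 were lower (14.4%). The median absolute log2 fold change was 0.38 among the higher and 0.29 among the lower genes, and only 253 and 132 of them changed by more than 1 on the log2 scale, a 2.0-fold difference. The elavmin and wild-type libraries did not overlap in CPM for 1506 of the higher and 1469 of the lower genes, against 30.3% of all genes tested. The median over all tested genes was 0.003 on the log2 scale. Between replicates of a group, the biological coefficient of variation was 8.92%.

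**Figure D1:**
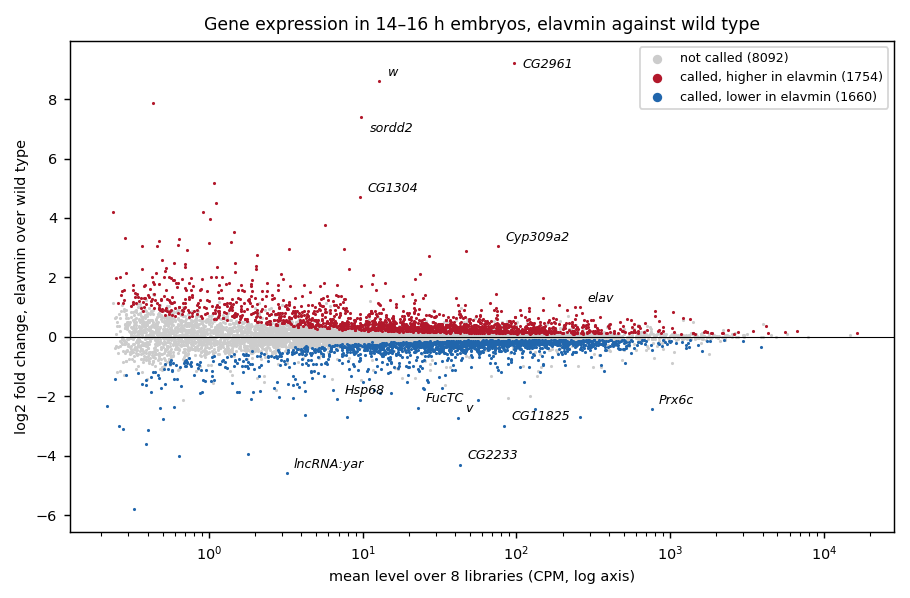
Log2 fold change, elavmin over wild type (y axis), against mean level over the 8 libraries in CPM (x axis, log scale) for the 11506 genes tested, red for the 1754 called higher, blue for the 1660 called lower and grey for the rest. CG2961, w and sordd2 stand apart at the top, while most coloured points lie within 1 of zero.

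Calls were spread over the genome. Between 28.2% and 31.5% of the tested genes were called on each of 2L, 2R, 3L, 3R and X, and 37.5% of 96 genes on chromosome 4, where 25 were lower and 11 higher. Within 0.5 Mb of elav on the X chromosome, 31.0% of 84 genes were called, against 31.1% of 1525 genes more than 3 Mb away. All 3 tested genes of the Y chromosome were higher in elavmin. They were FDY, WDY and CR41509, and FDY reached 16.7, 7.01, 9.70 and 8.74 CPM in elavmin, against 0.782, 0.656, 0.650 and 1.0 CPM in wild type. At 7 to 8 h FDY went the other way, with 9.02 to 15.1 CPM in elavmin,fnenFNE and 32.1 to 38.4 CPM in the fnenFNE control (log2 fold change -1.52, edgeR adjusted p = 0.0005858).

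elav itself was more abundant as mRNA in the mutant. It stood at 344, 360, 337 and 348 CPM in the elavmin libraries, against 185, 172, 167 and 175 CPM in wild type (X:509235-523226, dm6). All elavmin values lay above all wild-type values (log2 fold change 0.99 ± 0.040 SE, edgeR adjusted p = 1.222e-08). The excess was smaller in heads, at 0.27 ± 0.084 (edgeR adjusted p = 0.04598), and the test of the difference between embryos and heads gave 0.71 (edgeR adjusted p = 8.684e-05). At 7 to 8 h, elav was lower in elavmin,fnenFNE than in its control, at -0.32 on the log2 scale (edgeR adjusted p = 0.01213). Set directly against Δelav embryos, elavmin had less elav mRNA, as the 4 Δelav libraries held 565, 646, 572 and 555 CPM on the gene (log2 fold change -0.76 ± 0.051, edgeR adjusted p = 3.721e-06).

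The paralogs of elav did not pass the test. Rbp9, a neuronal family member also known from the germline, averaged 75.6 ± 4.11 CPM in elavmin and 73.2 ± 2.43 CPM in wild type (SD, n = 4 each). fne averaged 254 ± 5.97 CPM in elavmin and 258 ± 9.03 CPM in wild type (SD, n = 4 each) (log2 fold change -0.02 ± 0.037, edgeR adjusted p = 0.6873). This value depended on the bins summed. With the bins of the listed ELAV-dependent regions left out of the sum, the change of fne was 0.24 ± 0.036 in the other direction (edgeR adjusted p = 0.0004706).

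Among genes with a mean of at least 1 CPM and no overlap between the groups, the 12 largest positive changes lay between 3.05 and 9.21 on the log2 scale. The highest was that of CG2961, at 299, 161, 209 and 99.5 CPM in elavmin, against 0.261, 0.570, 0.266 and 0.190 CPM in wild type (X:10231002-10233080). The elavmin libraries differed widely among themselves, yet the lowest of them was far above every wild-type library, and the fitted log2 fold change was 9.21 ± 0.59 (edgeR adjusted p = 0.0001024). CG2961 was just as abundant in Δelav embryos, at 162, 162, 239 and 246 CPM.

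The gene w, which encodes an ABC transporter that carries eye pigment precursors, had 26.7, 24.7, 25.9 and 24.9 CPM in elavmin, against 0.0782, 0.171, 0 and 0 CPM in wild type. It was nearly silent in every wild-type library, and the log2 fold change was 8.60 ± 0.27 (edgeR adjusted p = 1.222e-08). The same contrast held in heads, at 6.54 on the log2 scale (edgeR adjusted p = 1.164e-07), and at 7 to 8 h, with 9.06 (edgeR adjusted p = 3.431e-06). The w1118 stock of the wild type is mutant for this gene. Another pigment gene, v (vermilion, tryptophan 2,3-dioxygenase, at the head of the ommochrome pathway), went the other way, with 11.2, 10.5, 11.8 and 10.7 CPM in elavmin, against 70.5, 70.6, 76.8 and 73.9 CPM in wild type. No library fell between these 2 ranges, the log2 fold change was -2.73 ± 0.055 (edgeR adjusted p = 3.206e-11), and it was -1.50 in heads (edgeR adjusted p = 3.562e-05).

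sordd2 on the X chromosome showed the same pattern at this age. It had 20.4, 19.0, 19.0 and 18.9 CPM in elavmin, against 0.130, 0.200, 0 and 0.109 CPM in wild type (log2 fold change 7.40 ± 0.22, edgeR adjusted p = 2.123e-09). Its bins E001, E002, E004 and E005 held 1140, 798, 179 and 147 counts over the elavmin libraries and 0 over the wild-type libraries, where the few counts of the gene all lay on E003. In heads the contrast was as wide, with 50.8, 47.0 and 48.5 CPM in elavmin, against 0.141, 0 and 0 CPM in wild type. At 7 to 8 h the elavmin,fnenFNE libraries had 17.4 to 23.2 CPM and the fnenFNE controls 16.6 to 19.0 CPM, which overlapped (log2 fold change 0.14, edgeR adjusted p = 0.416). Δelav embryos, at 18 to 20.6 CPM, were level with elavmin.

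Of the other 9 genes of this set, Cyp309a2, a cytochrome P450 gene, was the most abundant, at 131, 134, 140 and 138 CPM in elavmin, against 14.0, 9.44, 22.9 and 19.4 CPM in wild type (log2 fold change 3.05 ± 0.26, edgeR adjusted p = 0.0003125). CG1304 had 12.7 to 25.3 CPM in elavmin and 0.542 to 0.923 CPM in wild type. CG1850, Mst77F, CG6059, CG17217, Cdlc2 and CG33922 averaged between 1.81 and 2.67 CPM in elavmin and between 0.0539 and 0.273 CPM in wild type. Mst77F encodes a protamine-like protein of sperm chromatin and has near-identical copies on the Y chromosome, so the assignment of its reads, like that of FDY, which is related to an autosomal gene, is uncertain. Cdlc2, a dynein light chain gene, and CG33922 lie 229 bp apart on 2L.

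**Figure D2:**
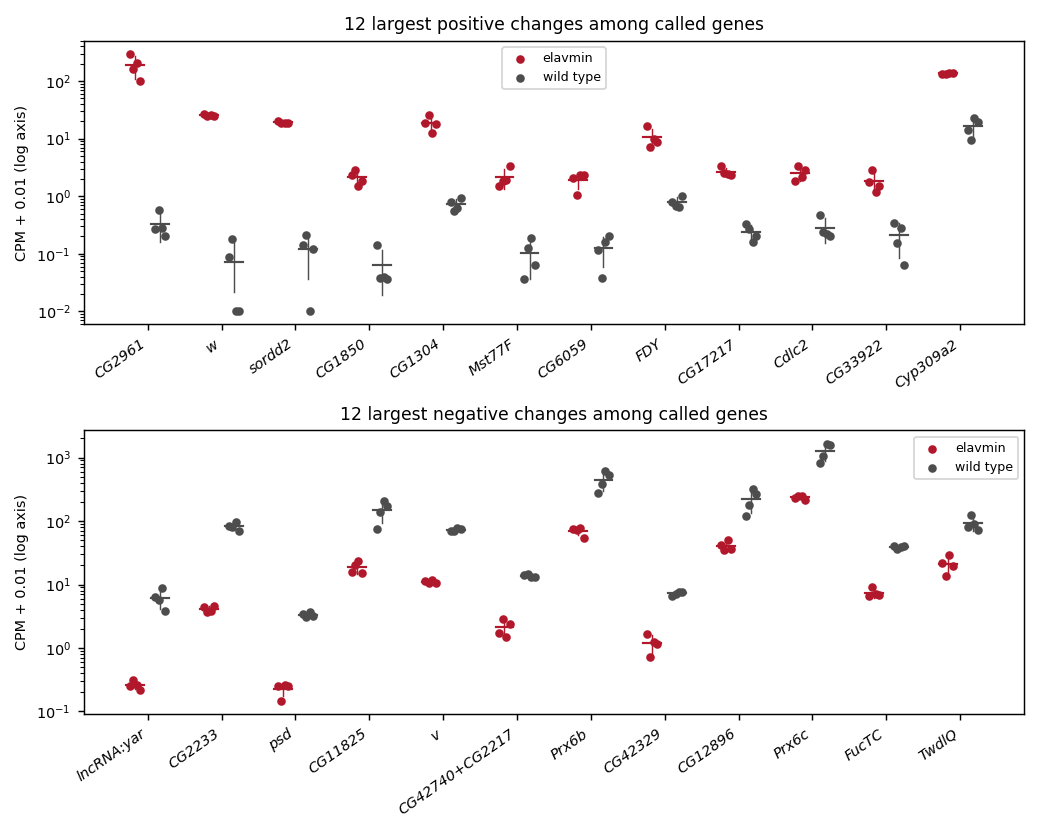
Levels of the 24 genes with the largest changes, in CPM plus 0.01 on a log axis, with 1 point per library, elavmin in red left of wild type in grey, the mean as a bar and the SD as a vertical line. The upper panel holds the 12 largest positive and the lower panel the 12 largest negative changes, and no gene has overlapping groups.

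The 12 largest negative changes lay between -4.59 and -2.14 on the log2 scale. lncRNA:yar, a non-coding RNA from between the yellow and achaete genes near the tip of the X chromosome (X:362399-367072), was at the low end. It had 0.244, 0.299, 0.250 and 0.207 CPM in elavmin, against 6.39, 5.62, 8.77 and 3.88 CPM in wild type (log2 fold change -4.59 ± 0.31, edgeR adjusted p = 2.125e-06). It was also lower at 7 to 8 h, where elavmin,fnenFNE had 0.0878 to 3.07 CPM and the fnenFNE control 19.5 to 29.4 CPM (log2 fold change -3.82, edgeR adjusted p = 0.01652).

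CG2233 had 4.43, 3.72, 3.87 and 4.66 CPM in elavmin, against 84.0, 79.5, 95.6 and 70.1 CPM in wild type (log2 fold change -4.31 ± 0.11, edgeR adjusted p = 3.863e-09). In heads it had 118 to 141 CPM in elavmin and 644 to 1023 CPM in wild type, and the fall there was the smaller of the pair (difference of the log2 fold changes -1.55, edgeR adjusted p = 0.0004538). Δelav embryos lay between, at 18.2 to 21.0 CPM, and elavmin was lower than Δelav at -2.25 on the log2 scale (edgeR adjusted p = 1.084e-07). psd (palisade), known from the eggshell, fell to 0.136 to 0.250 CPM in elavmin, against 3.11 to 3.66 CPM in wild type. FucTC, a fucosyltransferase gene, had 6.48 to 9.18 CPM in elavmin and 36.6 to 40.1 CPM in wild type.

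Prx6c, CG11825, Prx6b and CG12896, all within 2R:10418718-10427915, fell together. Prx6b and Prx6c encode peroxiredoxins, enzymes that break down peroxides. Prx6c had 233, 250, 249 and 217 CPM in elavmin, against 833, 1077, 1659 and 1560 CPM in wild type (log2 fold change -2.43 ± 0.24, edgeR adjusted p = 0.0006418). The other genes of the cluster had log2 fold changes of -2.99 (CG11825), -2.69 (Prx6b) and -2.44 (CG12896). For all of them the elavmin libraries lay close together, while the wild-type libraries spread widely and in the same order, with replicate 1 lowest and replicate 3 highest. In heads CG11825 was higher in elavmin (log2 fold change 1.59, edgeR adjusted p = 0.002143), and the change in embryos differed from that in heads for each gene of the cluster (differences from -4.58 to -2.16, edgeR adjusted p from 8.373e-05 to 0.01307). At 7 to 8 h CG12896 (-1.16, edgeR adjusted p = 0.009952) and Prx6c (-0.86, edgeR adjusted p = 0.04138) were lower in elavmin,fnenFNE, while Prx6b (-1.11) and CG11825 (-0.62) did not pass. Against the same wild-type libraries, Δelav embryos were also lower for each gene of the cluster, from -2.83 (CG11825) to -1.205 (Prx6c) (edgeR adjusted p from 0.001383 to 0.02065). The merged gene CG42740+CG2217, CG42329 and TwdlQ, which encodes a Tweedle cuticle protein, completed the set, with log2 fold changes of -2.70, -2.64 and -2.14.

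The largest gain in mean CPM was that of the merged gene Act57B+snoRNA:660, which holds a larval muscle actin, with 17140 ± 379 CPM in elavmin and 15730 ± 224 CPM in wild type (SD, n = 4 each). Its log2 fold change was no more than 0.12 ± 0.027 (edgeR adjusted p = 0.004487). TwdlM, eEF1alpha1, CG11584 and up followed. up encodes troponin T of muscle and averaged 5895 CPM in elavmin and 5316 CPM in wild type, while CG11584 had 1307, 1313, 1320 and 1431 CPM in elavmin, against 754, 633, 741 and 857 CPM in wild type (log2 fold change 0.85 ± 0.082, edgeR adjusted p = 0.0001192).

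The largest losses were those of Prx6c, Prx6b, lncRNA:CR42862+CG33229, CG31522 and Vajk4. lncRNA:CR42862+CG33229 averaged 3452 ± 155 CPM in elavmin and 4350 ± 234 CPM in wild type (SD, n = 4 each) (log2 fold change -0.33 ± 0.044, edgeR adjusted p = 0.0001648). Vajk4, a gene of the cuticle, was a borderline call at (log2 fold change -0.39 ± 0.11, edgeR adjusted p = 0.03603). It was lost without any 1 of 7 of the 8 libraries, all but elavmin replicate 3, with edgeR adjusted p-values from 0.05184 without wild-type replicate 1 to 0.08807 without wild-type replicate 2.

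Genes were next grouped by function, in lists chosen with earlier results of these data known. Among lists of the nervous system, surface and excitability genes had mostly lower calls. Of 44 axon guidance and cell recognition genes tested, 20 were lower and 1 was higher (background 14.4% and 15.2%), and the median log2 fold change was -0.13, against 0.003 for all genes. Dscam1, whose isoforms let branches of a neuron recognise each other, fell to 394 ± 5.87 CPM in elavmin, against 471 ± 16.1 CPM in wild type (SD, n = 4 each). Its log2 fold change was -0.26 ± 0.035 (edgeR adjusted p = 0.0001915). The teneurin genes Ten-a and Ten-m, which match synaptic partners and are merged here with non-coding RNAs, had log2 fold changes of -0.32 and -0.27. Wnt5 (-0.29), side (-0.26), Fas1 (-0.22) and the midline repellent gene sli (-0.15) were also lower, and caps (0.18) alone was higher. With the listed ELAV-dependent bins left out, 18 were lower and 0 higher.

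Of 26 neuronal ion channel genes, 12 were lower and 1, KCNQ, was higher (background 14.4% and 15.2%), with a median of -0.17. ppk, a sodium channel gene of larval pain-sensing neurons, fell to 11.3 ± 1.11 CPM in elavmin, against 19.0 ± 0.833 CPM in wild type (SD, n = 4 each). Its log2 fold change was -0.75 ± 0.078 (edgeR adjusted p = 2.984e-05). The potassium channel genes Shab (-0.50), eag (-0.45) and Shal (-0.38) and the channel modulator gene qvr (-0.41) were lower too. In heads 8 of the 26 were lower and 0 higher, again with eag (-0.64), qvr (-0.62) and Shal (-0.31) among them, whereas of the 44 axon guidance genes 1 was lower and 0 were higher there (background in heads 10.2% higher and 10% lower).

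Synaptic and transmitter genes had smaller shares of calls. Of 29 pan-neuronal and synaptic genes, 6 were lower (20.7%, background 14.4%) and 2, elav and Syt4, were higher (6.9%, background 15.2%). The lower count was 3 without elavmin replicate 1 and 10 without elavmin replicate 2. Snap25, a vesicle fusion gene, had 10.4 ± 1.65 CPM in elavmin and 15.0 ± 0.835 CPM in wild type (SD, n = 4 each; log2 fold change -0.53, edgeR adjusted p = 0.002694). nSyb, its partner on vesicles, had a log2 fold change of -0.21. Of 14 genes for transmitter synthesis and transport, 5 were lower, VGlut (-0.34) and SerT (-0.34) among them, and Ddc (0.56), which also serves cuticle tanning, was higher. Of 28 neuropeptide genes, 7 were lower and Akh (0.73) was higher. Set directly against Δelav, elavmin embryos had 11 of 27 neuropeptide genes and 7 of 14 transmitter genes higher and 0 lower (background 9.26% and 7.06%). In the same contrast, 21 of 44 axon guidance genes, 7 of 22 glial genes and 8 of 24 neuroblast genes were lower in elavmin, and 1, 0 and 0 were higher.

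The study's list of ELAV-dependent regions gave 2 further sets. It was compiled from earlier work and marked by Δelav embryos against the wild-type embryos also used here, so the direction of these sets is not independent evidence. Of 270 tested genes with a listed 3′ UTR, 100 were lower and 23 were higher (background 14.4% and 15.2%), with a median of -0.09. With the bins of the listed regions left out of the gene sums, 66 were lower and 29 higher, with a median of -0.05. Of 170 tested genes with a listed exon, 65 were lower and 17 higher, and 58 and 17 with those bins left out. PsGEF, a Rac guanine nucleotide exchange factor gene in both sets, fell to 49.4 ± 2.64 CPM in elavmin, against 100 ± 2.54 CPM in wild type (SD, n = 4 each; log2 fold change -1.02, edgeR adjusted p = 2.841e-08). HIP-R fell further, to 6.01 ± 0.0847 CPM in elavmin, against 16.1 ± 0.553 CPM in wild type (SD, n = 4 each; log2 fold change -1.42, edgeR adjusted p = 3.831e-08). rl, the fly ERK kinase gene, had a log2 fold change of -0.77, and Scgalpha, a sarcoglycan gene of the muscle membrane, one of 0.68.

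Of 36 neural regulators of splicing and polyadenylation, 8 were lower (22.2%, background 14.4%) and 4 higher (11.1%, background 15.2%), with a median of -0.009. With the listed ELAV-dependent bins left out, 6 were lower and 6 higher, with a median of 0.034. The members that fell included Syp (-1.19), Imp (-0.34), which is merged with a non-coding RNA, Rbp6 (-0.29), Rbfox1 (-0.26) and pum (-0.22), all genes of RNA-binding proteins. sqd (0.17) and Hrb87F (0.28), which encode abundant hnRNP proteins, were higher. Of 15 genes of sex determination and dosage compensation, 4 were lower and 1 higher (background 14.4% and 15.2%). lncRNA:roX1, a non-coding RNA of the complex that raises transcription of the male X chromosome, had 452 ± 22.7 CPM in elavmin and 663 ± 23.8 CPM in wild type (SD, n = 4 each; log2 fold change -0.55, edgeR adjusted p = 3.038e-06). lncRNA:roX2, the other RNA of that complex, had a log2 fold change of -0.50, and both were also lower in elavmin heads (-0.44 and -0.77).

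Heat shock and chaperone genes had the highest share of lower calls of all the lists, 11 of 18 (background 14.4%), with a median of -0.35. Hsp68, an inducible Hsp70 relative, had 2.65, 2.63, 2.87 and 2.21 CPM in elavmin, against 8.65, 10.4, 9.54 and 15.9 CPM in wild type. The groups lay well apart (log2 fold change -2.10 ± 0.20, edgeR adjusted p = 5.234e-05). The small heat shock gene Hsp26 had 17.4, 14.3, 21.4 and 26.1 CPM in elavmin, against 32.5, 50.2, 52.1 and 59.3 CPM in wild type (log2 fold change -1.30, edgeR adjusted p = 0.009311), and Hsp27 moved alike (-1.34). For Hsp70Aa and Hsp70Ab, which are near-identical copies and may share reads, the elavmin libraries averaged 0.664 and 0.919 CPM and the wild-type libraries 2.48 and 3.39 CPM. Hsc70-4, a constitutive chaperone gene, was the only higher one, and it lost its call without any of 6 libraries. Without a library at a time, 8 to 10 members were lower. In heads 0 of the 18 passed in either direction, and against Δelav embryos elavmin had 8 higher and 0 lower (background 9.26% and 7.06%).

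Of 51 genes of cuticle, chitin and tanning, 13 were higher and 3 lower (background 15.2% and 14.4%), with a median of 0.13. The Tweedle genes TwdlB and TwdlL averaged 1632 ± 90.0 and 1486 ± 136 CPM in elavmin, against 1065 ± 160 and 958 ± 62.9 CPM in wild type (SD, n = 4 each), log2 fold changes of 0.62 and 0.63. The cuticle protein genes Cpr65Ec (0.61) and Lcp4 (0.51) were higher too, while kkv (-0.59), the chitin synthase of the cuticle, and knk (-0.43), which organises chitin, were lower. The lower count was 5 without elavmin replicate 1 and also without elavmin replicate 3. Of 27 detoxification genes, 10 were higher and 3 lower, with a median of 0.17. GstE1, a glutathione S-transferase gene, rose to 54.9 ± 5.45 CPM in elavmin, against 29.7 ± 1.60 CPM in wild type (SD, n = 4 each; log2 fold change 0.88, edgeR adjusted p = 3.708e-06). The P450 genes Cyp12d1-d (2.49) and Cyp12d1-p (1.53), near-identical copies whose reads may be shared, and Cyp6a17 (0.89) were higher, and the transporter gene Mdr50 (-1.33) was lower. In heads 9 of 28 tested detoxification genes were higher and 0 lower (background 10.2% and 10%).

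**Figure D3:**
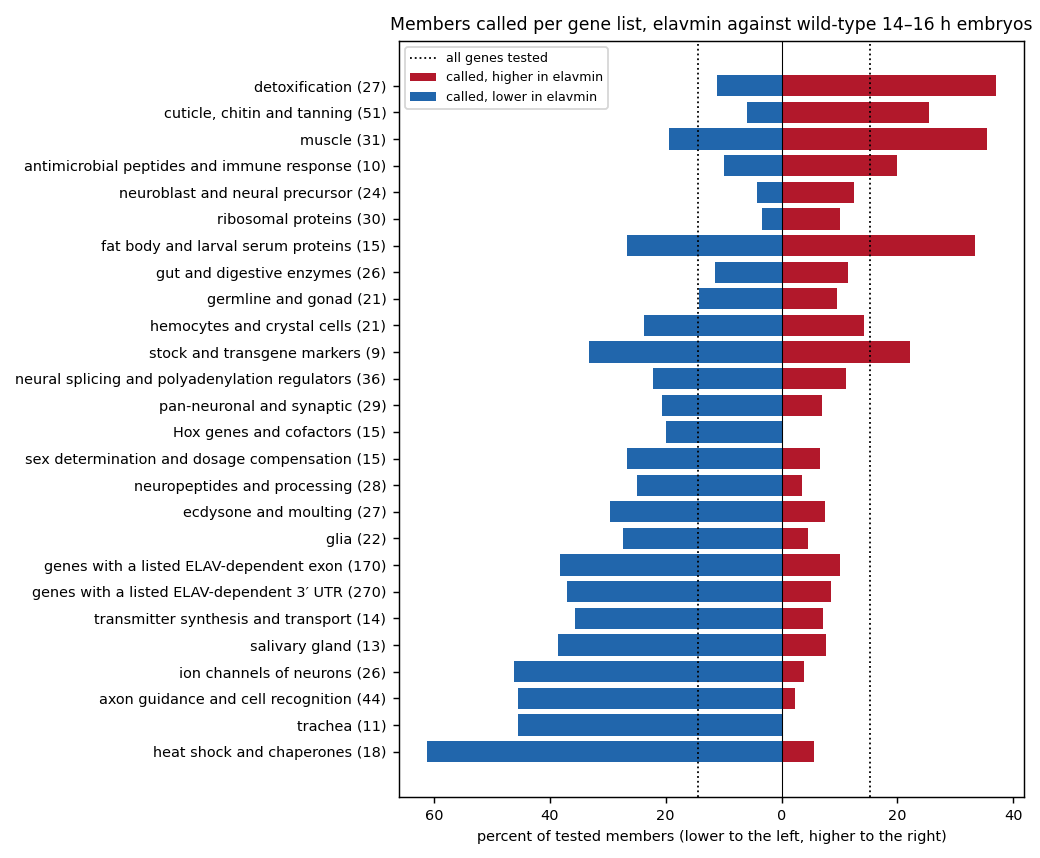
Percent of tested members called in each gene list, with blue bars to the left for genes lower in elavmin and red bars to the right for genes higher in elavmin, the number of tested members in parentheses and dotted lines at the 14.4% and 15.2% of all genes. Heat shock genes reach furthest to the left with 11 of 18 lower, and detoxification genes furthest to the right with 10 of 27 higher.

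Of 31 muscle genes, 11 were higher and 6 lower (background 15.2% and 14.4%), with a median of 0.08. The higher ones included Tm2 (tropomyosin) at 2553 ± 30.6 CPM in elavmin and 2200 ± 29.8 CPM in wild type (SD, n = 4 each; log2 fold change 0.21, edgeR adjusted p = 0.0001407), TpnC73F (troponin C, 0.22), Prm (paramyosin, 0.17) and Mlc2 (myosin light chain, 0.14), and also rols (0.27), a gene of myoblast fusion. The myoblast fusion genes sns (-0.22) and mbc (-0.16), the sarcomeric kinase gene Strn-Mlck (-0.21) and the RNA-binding protein gene how (-0.13) fell. Of 27 ecdysone and moulting genes, 8 were lower and 2 higher, with a median of -0.20. The early ecdysone-inducible genes ImpE1 (-0.65) and ImpL2 (-0.45) and the nuclear receptor gene Eip78C (-0.29) fell, and spok (1.16), a gene of ecdysone synthesis, rose. Summed muscle markers were higher and glial and hemocyte markers lower in elavmin, as given above. Neuronal markers without elav also averaged lower. The part of these markers in the changes of the lists was not tested.

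Of 22 glial genes, 6 were lower and 1 higher (background in embryos, here and below, 14.4% and 15.2%). Among the lower were axo (-0.46), Gli (-0.38), moody (-0.21) and wrapper (-0.22), genes of glial surfaces and septate junctions. In heads, by contrast, 12 of 21 glial genes were higher and 1 was lower (background 10.2% and 10%), and axo had a log2 fold change of 0.31 there. Of 21 hemocyte genes, 5 were lower (23.8%) and 3 were higher (14.3%). The lower ones included Pxn (-0.33), which is merged with a non-coding RNA, and drpr (-0.26), an engulfment receptor gene merged with Oseg4. The lower count was 3 without elavmin replicate 2 or 4 and without wild-type replicate 2 or 3, and the higher count was 1 without elavmin replicate 1 or 3. Of 13 salivary gland genes, 5 were lower, with PH4alphaSG1 (-1.14) and pip (-0.42) the most changed, and 1 was higher. Of 11 tracheal genes, 5 were lower and 0 higher, and the lower count was 3 without any of elavmin replicates 2 and 4 and wild-type replicates 2, 3 and 4. Fat body genes divided, with 5 of 15 higher, among them FASN1 (1.02, fatty acid synthase), and 4 lower, among them the lipase gene bmm (-0.41). Of 9 genes that commonly mark fly stocks, 2 were higher, w among them, and 3 were lower, among them v and the bristle gene f (-0.67, and -1.11 in heads). The higher count was 1 without any of elavmin replicates 1, 3 and 4 and wild-type replicates 1, 2 and 4. In the lists of gut, germline, neuroblast, Hox, immune, ribosomal protein and histone genes, between 0 and 3 members were higher and between 1 and 3 were lower, and in each of these lists at least 1 of both counts changed by more than 1.5 times when 1 library was left out.

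Adult heads, which differ from whole embryos in both tissue and age, were used to see which changes were also present there. Of the 1479 genes higher in elavmin embryos that were also tested in heads, 300 (20.3%) were higher in elavmin heads, against 10.2% of all genes tested there, and 68 were lower. These 300 made up 27.7% of the genes higher in heads. In either direction 20.2% of all genes passed in heads and 6.4% at 7 to 8 h. Of the 1540 lower genes tested, 289 (18.8%) were lower in heads, against a background of 10%, and 93 were higher, and the 289 made up 27.1% of the genes lower in heads. Among genes that changed by more than 1 on the log2 scale in embryos, 50 of 137 and 38 of 91 passed in the same direction. At 7 to 8 h, where both genotypes also carried fnenFNE, 70 of 1376 (5.09%) were again higher, against a background of 3.83%, and 44 of 1425 (3.09%) again lower, against 2.57%.

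In the same direction at all 3 stages, 26 genes were higher and 8 lower. Besides w, the largest positive changes in embryos among them were those of lncRNA:CR44506 (2.38 in embryos, 1.04 in heads, 1.91 at 7 to 8 h), the merged gene CG13359+CG13358 (1.83, 2.22 and 1.41) and CG32436 (1.57, 2.76 and 1.14). poe, a large calmodulin-binding protein gene, was the most abundant of the higher genes, at 344 ± 10.2 CPM in elavmin and 236 ± 13.3 CPM in wild type (SD, n = 4 each; log2 fold change 0.54, then 0.66 and 0.65). HIP-R (-1.42, -1.50 and -1.89), AstA-R1 (-1.60, -0.61 and -3.60), an allatostatin receptor gene, and PIG-K (-0.91, -0.43 and -0.47) were lower throughout, and all 3 lie on the X chromosome.

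**Figure D4:**
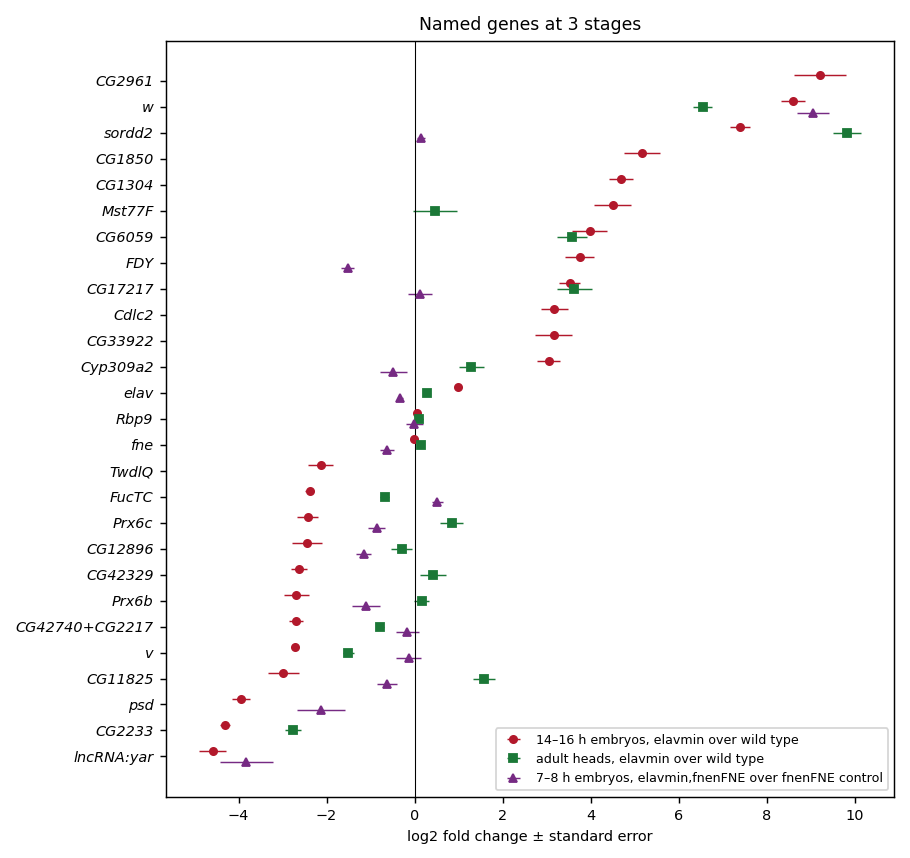
Log2 fold change with its SE for the 12 largest changes in each direction and for elav, fne and Rbp9 in 14 to 16 h embryos (red circles, elavmin over wild type), adult heads (green squares, elavmin over wild type) and 7 to 8 h embryos (purple triangles, elavmin,fnenFNE over fnenFNE control), where tested. w is high at all 3 stages, sordd2 in embryos at 14 to 16 h and in heads but not at 7 to 8 h, and CG11825 lies below zero in embryos and above it in heads.

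The direct test of the embryo against the head change was passed by 18 of the 35 genes that the naming rule picked. Over all genes 17.6% passed, 8.06% with the embryo change above the head change and 9.5% below it, but most named genes were picked for their change in the same embryo libraries, so nothing is read from the count against these shares. Where a gene was hardly expressed in heads, as for CG2961, CG1850 and Cdlc2, the head value in this test rests on few counts. Set directly against Δelav embryos, 8 of 33 tested named genes were higher in elavmin and 8 were lower, with the same reserve. CG2961 (log2 fold change -0.08, SE 0.36), w (-0.07, SE 0.073), sordd2 (-0.01, SE 0.066), CG1304 and FucTC did not pass there, although each was far from wild type in both mutants. CG17217 differed clearly, with 2.35 to 3.31 CPM in elavmin and 0.101 to 0.278 CPM in Δelav (log2 fold change 3.62, edgeR adjusted p = 5.678e-06). Both mutants were set against the same wild-type libraries, so their changes relative to wild type are not independent of each other.

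The usage of a bin, its share of the gene's counts, was tested next with edgeR's exon usage test at an adjusted p-value of 0.01. Fold changes of usage and their SE are natural logs (ln), the scale of that test's coefficients, whereas those of gene level are log2. Outside the genes of the study's list, 200 bins had higher usage in elavmin (0.379% of the 52784 tested) and 243 had lower usage (0.46%). Together they made up 0.839% of the bins, lay in 305 genes, and 85 of them changed by more than 1 on the natural-log scale. In the listed genes 121 (1.95%) bins had higher and 257 (4.14%) lower usage of 6203 tested, 6.09% in all. Without elavmin replicate 4 the lower bins outside the list numbered 160. The median width of the called bins was 261 nt, against 259 nt for all tested, and 245 (55.3%) of the 443 lay in genes whose level also passed, against 33.2% of all tested bins. In heads 30 of 161 tested higher bins and 29 of 200 tested lower bins passed in the same direction, where 155 and 165 of 49239 bins passed in all.

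The sequences of 3 short bins are shown because they are the stretches of RNA whose usage rose (AGO2, Ctl2) or that had no counts at all (p24-2+Unc-115b) in elavmin. They are read 5′ to 3′ on the strand of the gene from the dm6 assembly in RefSeq, with the bin itself in capitals.
AGO2 E004: taaACATTCTTTGTCGATTTCTAAATCTAG
Ctl2 E003: gcaagtgcaaGTGAGTCGCAgtacgtgagc
p24-2+Unc-115b E015: CTGTCAATACAAGTGCTTACATAGGCACA

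AGO2, the Argonaute gene of the siRNA pathway, gained its 27-nt bin E004 (window shown, 3L:15556820-15556849), which lies in the 5′ UTR and is annotated in 1 of 3 transcripts. The bin held 21, 26, 27 and 20 counts in elavmin, against 1, 1, 1 and 0 in wild type. This was 0.323% ± 0.0223 of the counts of the gene in elavmin and 0.00635% ± 0.00424 in wild type (SD, n = 4 each). The ln fold change of usage was 3.78 ± 0.25 (edgeR adjusted p = 6.699e-21). AGO2 as a whole was lower in elavmin (log2 fold change -0.53, edgeR adjusted p = 1.958e-06). In Δelav the share was 0.00944% to 0.0273%, and elavmin was higher (ln fold change of usage 2.90, edgeR adjusted p = 2.462e-17).

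Ctl2, a choline transporter-like gene, used more of its 10-nt bin E003 (window shown, 3R:29123480-29123509), a stretch of 5′ UTR that begins with GT and is followed by GT. The bin held 12, 27, 18 and 21 counts in elavmin, against 3, 7, 1 and 6 in wild type. All elavmin shares, 0.395% to 0.677%, were above all wild-type shares, 0.0294% to 0.177%. The ln fold change of usage was 1.58 ± 0.22 (edgeR adjusted p = 6.169e-07), while the level of the gene did not pass. The bases beside the bin were looked up for 15 of the 20 named bins, leaving out those on 2R and the ribosomal RNA bin. Of these 15, 7 were preceded by AG and 9 followed by GT on the strand of the gene, and 5 had both. Among 41785 tested bins outside the list, also without 2R, 73.9% were preceded by AG, 71.2% followed by GT and 52.9% had both.

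Larger bins changed as well. The 881-nt bin E004 of CG1637, coding sequence and 3′ UTR at X:10872175-10873055, took 17.4%, 18.6%, 16.8% and 18.9% of the counts of the gene in elavmin, against 2.92%, 3.17%, 4.96% and 4.11% in wild type. The groups were far apart, with an ln fold change of usage of 1.55 ± 0.074 (edgeR adjusted p = 4.147e-29), and the bin also passed in heads (1.17, edgeR adjusted p = 7.738e-15). The 729-nt 3′ UTR bin E001 of CG1986 took 11.2% to 14.1% in elavmin and 0.376% to 1.30% in wild type (ln fold change of usage 2.65, edgeR adjusted p = 6.494e-18), and Δelav was level with elavmin at 11.9% to 12.9%. CG6961 E003, a coding bin, took 5.0% to 12.5% in elavmin and 0.840% to 2.04% in wild type. In Δelav it took 4.41% to 10.4%. At 7 to 8 h it took 7.53% to 9.18% in elavmin,fnenFNE and 7.83% to 9.93% in the control. The higher set also held bins of CG16743 (2.49), lncRNA:CR43650+mir-8 (1.95), CG13220 (1.84) and lncRNA:CR45215+Ctr1B (1.79), which includes a copper transporter gene. CG11825 E007 (3.24) rested on few counts and lost its call without any 1 of 5 libraries, with edgeR adjusted p-values of 0.01584, 0.08005 and 0.01376 without elavmin replicates 1, 2 and 4, and 0.01678 and 0.01516 without wild-type replicates 2 and 4.

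The most complete loss was in the merged gene p24-2+Unc-115b on 3R, which joins a gene of a vesicle cargo receptor family and a gene of an actin-binding protein. Its adjacent bins E015 to E018 (3R:9691813-9692775), of which E015 is printed above, had 0 counts in all 4 elavmin libraries and 699, 421, 415 and 468 counts in the wild-type libraries. Against a floor of 3 counts over the group and per total counts of the libraries, their level was at least 585-fold lower in elavmin. In heads the same bins had 0, 2 and 0 counts in elavmin, against 209, 338 and 190 in wild type. In Δelav embryos they had 677, 655, 652 and 635 counts, and at 7 to 8 h counts were present in both elavmin,fnenFNE and its control. The bins beside them were nearly empty too. In elavmin E014 held 0, 2, 0 and 0 counts, E013 0, 1, 0 and 0, and E012 3, 4, 3 and 5. In wild type these held 74, 40, 49 and 47, then 23, 13, 17 and 12, and 36, 22, 29 and 23. E001 to E011 together kept 1001, 1229, 976 and 1007 counts in elavmin, against 2299, 1511, 1628 and 1972 in wild type. The merged gene as a whole changed by -1.01 on the log2 scale (edgeR adjusted p = 0.0001196). Over all bins of the table, only E015 to E018 had 0 counts in every elavmin library and at least 10 in each wild-type library. The reverse pattern was found in 8 bins of 5 genes, among them 4 of sordd2 and 1 of w.

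**Figure D5:**
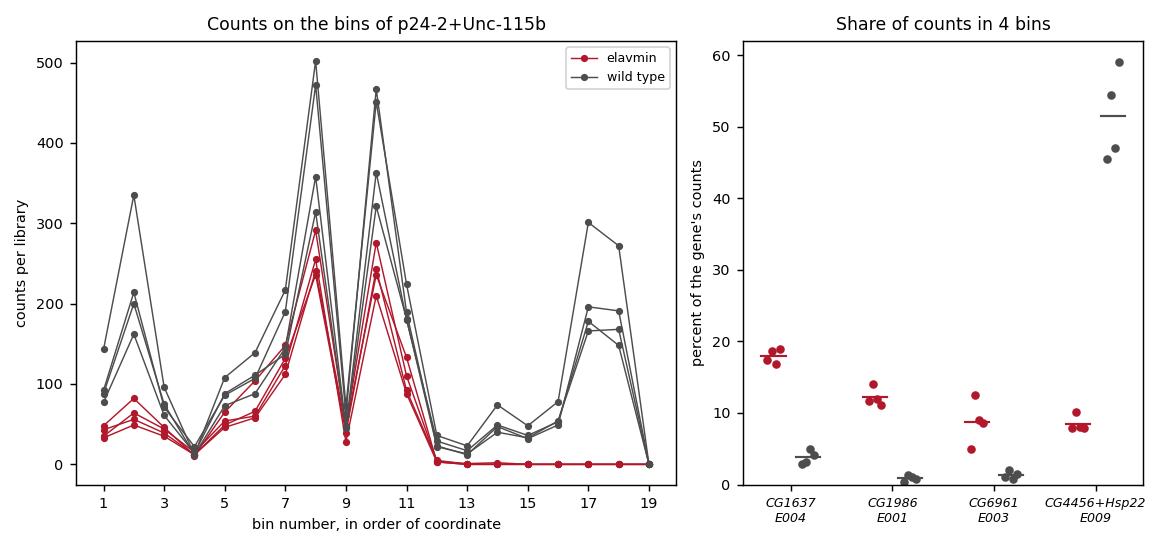
Left, counts per library on the 19 bins of p24-2+Unc-115b in order of coordinate, with elavmin libraries in red and wild-type libraries in grey, where the red lines lie at 0 from bin 15 on. Right, share of the gene's counts in percent for 4 bins, with 1 point per library, elavmin left of wild type and the mean as a bar, where CG1637, CG1986 and CG6961 are higher and CG4456+Hsp22 is lower in elavmin.

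Among the other bins with lower usage, CG4456+Hsp22 E009, which covers the small heat shock gene Hsp22, took 7.93%, 10.1%, 8.10% and 7.89% in elavmin, against 45.6%, 54.4%, 47.1% and 59.1% in wild type (ln fold change of usage -1.78, edgeR adjusted p = 9.727e-15). As the merged gene joins 2 genes, this share moves with the level of Hsp22 relative to CG4456. In Δelav the share was 2.07% to 7.22%. Npc2b E001, a 5′ UTR bin of a sterol-binding protein gene, held 0, 0, 0 and 2 counts in elavmin, against 37, 44, 18 and 24 in wild type (-3.73, edgeR adjusted p = 1.293e-09), and the level of the gene did not pass. lncRNA:CR31781 E005 held 0, 1, 1 and 0 counts in elavmin, against 27, 28, 22 and 19 in wild type, and CG42260 E014, a coding bin, 0, 4, 2 and 4 counts in elavmin, against 39, 29, 51 and 52 in wild type. Ubi-p5E E004, in the 5′ UTR of a polyubiquitin gene, and trol+mir-4955 E051, in the 5′ UTR of the perlecan gene, had ln fold changes of usage of -1.55 each and passed in heads too (-1.71 and -1.09). CG6912+asRNA:CR45600 E008 had -2.50. The remaining members were sordd2 E003, whose share fell to 6.03% to 9.76% in elavmin, against 100% in the 3 wild-type libraries with any count, and a bin of the ribosomal RNA genes (-2.36), which lost its call, at an edgeR adjusted p of 1.0, with all 4 genotypes in a single fit.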

How the data were processed

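The deposited tables hold counts of reads per exon bin, which the authors made by aligning reads to dm6 and counting them over flattened gene models, with genes whose exons overlap joined into merged genes. The submitters' processing notes name STAR, Subread and featureCounts, without versions, while the study's methods name HTSeq for counting reads on exons, so which counter made these tables is uncertain, and whether the counting used strand is not given in the sources used here, so reads of antisense partners may be mixed. The tables also hold the authors' log2 fold changes, p-values and mean normalized counts, which were not used, and 8 repeated columns that were identical.

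Counts were summed per gene and tested with edgeR 4.0.16 in R 4.3.3 (filterByExpr, TMM scaling, quasi-likelihood test with robust dispersion, two-sided, Benjamini-Hochberg adjustment over all genes). CPM are counts scaled to a common TMM-adjusted library size. Bin usage was tested with the exon usage test of edgeR over all bins of the table, and its fold changes and SE are on the natural-log scale. SE was taken from the fold change and its F statistic. Tables were written with Python 3.11.15, pandas 2.3.3 and NumPy 2.4.6 and plots with matplotlib 3.10.9. DESeq2 1.42.0 and limma 3.58.1 served as alternatives, beside other filters, scalings, thresholds, a replicate block and each library left out.

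Named genes were the 12 largest changes in each direction with a mean of at least 1 CPM and groups apart, the 5 largest differences in mean CPM in each direction, and elav, fne and Rbp9. Named bins were the 10 largest called usage changes in each direction with a mean count of at least 10, 1 per gene. Members and lists were chosen with earlier results of these data known. On simulated counts for the embryo comparison, with changes only in well-covered genes and bins, all 50 genes at each fold from 1.5 to 4 were found. There were 7 false calls among 11509 genes. Of 50 bins each, 30%, 88%, 90% and 94% were found at folds of 1.5, 2, 3 and 4. With 59016 bins tested there were 4 false calls, counted only in genes without a changed bin. Replicates of a group differed by more than counting noise (chi-square per degree of freedom of 8.97 to 39.1). Nothing in the labels says that replicates were separate crosses, so p-values measure the spread between these pooled samples.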

Additional observations from a re-analysis of the deposited data

Results flagged for a closer look

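Among the members, a sample stood apart from the other 3 of its group in 13 of 109 groups of values, where chance gives about 5.45, since about 1 in 20 groups is picked out by chance. For levels these were sordd2 in elavmin replicate 1 (20.36 CPM), CG11584 in elavmin replicate 4 (1431 CPM), psd in elavmin replicate 2 (0.1358 CPM), and CG1850 (0.1303 CPM) and Cdlc2 (0.4692 CPM) in wild-type replicate 1. For shares of the gene's counts they were AGO2 E004 in elavmin replicate 3 (0.3556%) and in wild-type replicate 4 (0.0%), lncRNA:CR43650+mir-8 E001 in elavmin replicate 3 (9.948%) and in wild-type replicate 1 (0.6966%), CG13220 E001 in wild-type replicate 4 (0.8403%), Npc2b E001 in elavmin replicate 4 (0.1595%), sordd2 E003 in elavmin replicate 1 (9.76%) and CG4456+Hsp22 E009 in elavmin replicate 2 (10.1%).

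For 18 named genes the change in elavmin embryos differed from that in elavmin heads by the edgeR interaction test, although most of these genes had been picked for their embryo change. The embryo change minus the head change, on the log2 scale, was positive for elav (0.7081), CG2961 (8.601), w (2.025), CG1850 (4.745), Mst77F (4.019), Cdlc2 (3.169) and Cyp309a2 (1.746). It was negative for CG2233 (-1.553), v (-1.234), FucTC (-1.72), CG42740+CG2217 (-1.928), CG42329 (-3.066), lncRNA:CR42862+CG33229 (-0.3674), CG31522 (-0.452) and the peroxiredoxin cluster with CG11825 (-4.577), Prx6c (-3.29), Prx6b (-2.865) and CG12896 (-2.157). For w the wild-type mean was near the floor, at 0.0623 CPM in embryos and 0.298 CPM in heads. The elavmin means were 25.57 and 28.45 CPM, so the difference for w rests on few wild-type counts.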

How the results depend on the processing

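The direction of every named gene other than fne and of every named bin held under each alternative run. fne reversed to 0.24 (edgeR adjusted p = 0.0004706) with the bins of the listed regions left out. Of 1754 genes higher and 1660 lower in elavmin, an adjusted p under 0.01 left 984 and 892, and a fold limit of 0.5 on the log2 scale left 631 and 391. DESeq2 called 1770 and 1800. Of the 200 bins with higher usage, an adjusted p under 0.05 gave 307, one under 0.001 gave 131 and a limit of 0.5 on the natural-log scale gave 129. Of the 243 bins with lower usage these gave 371, 144 and 134. Of 589 genes called in the same direction in embryos and heads, 228 were left at an adjusted p under 0.01 at both stages. Leaving out 1 library at a time gave 1370 to 1740 genes higher and 1305 to 1612 lower, 152 to 194 bins higher and 160 to 269 lower, the 160 without elavmin replicate 4, and 403 to 677 genes shared with heads. Same-lettered libraries were not treated as pairs in the main test. Correlations of their deviations (-0.21, -0.18, 0.36 and -0.05 over 7304 genes) cannot settle whether they were pairs, as differently lettered libraries ranged from -0.62 to 0.61. A replicate block gave 1656 and 1493 genes, 189 and 213 bins and, at both stages, 815 genes shared with heads. Of the values of named genes under alternatives, 17 fell short of the threshold, 10 of them for Vajk4, as did 8 of named bins, 7 of them for CG11825 E007. Depth limits the genes near 1 CPM and the bins with few counts. In simulated counts, usage changes of 1.5-fold were mostly missed even in well-covered bins, of which 30% were found. Changes in bins with few counts were not simulated.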

Other observations

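Genes sharing a symbol stem gave further groups, which were picked out after their values were seen and are given as values only. Of 21 dpr genes, cell surface proteins of synaptic partner recognition, 13 were lower in elavmin embryos and 0 higher, with a median log2 fold change of -0.26, and of 13 beat genes, also of the immunoglobulin superfamily, 5 were lower and 0 higher. Of 16 Osi genes, expressed in cuticle-forming epithelia, 4 were lower and 0 higher, with a median of -0.95. Of 13 Lcp and 57 Cpr cuticle protein genes, 5 and 19 were higher and 0 and 3 lower, with medians of 0.51 and 0.33.

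Of 45 mRpL genes, which encode proteins of the large mitochondrial ribosomal subunit, 15 were higher and 0 lower, with a median of 0.10. Of 21 Nup genes of the nuclear pore, 7 were higher and 0 lower, with a median of 0.19. Of 14 GstE genes 7 were higher and 1 lower, and of 15 Gr gustatory receptor genes 4 were higher and 0 lower. Of 312 lncRNA genes 68 were higher and 30 lower, with a median of 0.15. Over all tested genes 15.2% were higher and 14.4% lower.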
